A study of Caenorhabditis elegans with 16 samples.

Results

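The comparison described here is the response of adult *Caenorhabditis elegans*, labelled H3K27ac-deficient, to 24 h without food. It takes 8 of the 16 libraries of the study, chosen by their labels alone, with 4 fasted and 4 fed libraries. The fasted group held nematodes with a mutation in *jmjd-3.1* that ate bacteria producing *cbp-1* double-stranded RNA from the L1 larval stage, and that were moved at adult day 1 to plates without food until adult day 2. The fed group had the same mutation, the same RNA interference and the same age, and kept unlimited bacteria over that day. Wild-type N2 animals on bacteria with the empty vector, fasted or fed in the same way, gave another 4 libraries each and serve here only to ask where the response differed. All animals grew at 20 °C, each library came from a large pool of whole animals, and all libraries carry the label batch 1. The titles name the *jmjd-3.1* allele gk384 and the genotype field names gk387. Mutation and RNA interference always came together, so their shares cannot be told apart.

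Acetylation of lysine 27 of histone H3, H3K27ac, marks active promoters and enhancers. CBP-1, the nematode homologue of CBP and p300, places this acetyl group, and JMJD-3.1 removes methyl groups from the same lysine. A nematode without food turns from growth and yolk making to its stored fat: lipases release fatty acids, acyl-CoA synthetases activate them, mitochondria oxidise them, and the glyoxylate cycle builds sugar from the products. Autophagy and lysosomal hydrolases recycle cell components, and the transcription factors DAF-16, HLH-30 and NHR-49 are known regulators of this state.

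Whole-animal RNA holds every tissue, and markers of intestine, muscle, neurons, hypodermis, germline and oocytes were all detected. In such bulk samples, fewer cells of a type and less RNA per cell cannot be told apart. Estimated read totals were 16446081 to 23716598 per fasted library and 20585430 to 27792762 per fed library. Levels of single genes are given as CPM, a gene's reads as a share of the scaled library, in the order of replicates 1 to 4. A log2 change is the fasted level over the fed level on the log2 scale, so 1 is a 2-fold rise, and SE is its standard error. All tests are two-sided tests of the edgeR quasi-likelihood model over 15840 genes with Benjamini-Hochberg adjustment, and a gene is said to have risen or fallen when its adjusted p was under 0.05. Nothing in the labels says whether a replicate number marks 1 experiment, and 4 independent experiments are named.

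The targeted genes were read first, and gene positions are given on the WBcel235 build. *cbp-1* (WBGene00000366, bases 9766509 to 9774825 on the plus strand of chromosome III) had 259.9, 261, 261 and 322 CPM in fasted and 178, 248, 179 and 234 CPM in fed labelled-deficient libraries. Every fasted value lay above every fed value, and the log2 change was 0.40 (SE 0.14, adjusted p 0.0282 in edgeR). In wild type the means were 149 ± 18 CPM fasted and 103 ± 16.9 CPM fed (SD, n = 4), so reads of *cbp-1* were not fewer under its own RNA interference, and reads of the gene and of the interference trigger cannot be told apart here. *jmjd-3.1* (WBGene00017571, bases 8571047 to 8575451 on the plus strand of chromosome X) had 23.2, 21.3, 21.1 and 21.8 CPM in fasted and 16.0, 21.4, 15.9 and 16.16 CPM in fed libraries, with fed replicate 2 inside the fasted range, and a log2 change of 0.33 (SE 0.12, adjusted p 0.0363 in edgeR). Its wild-type means were 20.0 ± 2.65 CPM fasted and 12.33 ± 0.398 CPM fed (SD, n = 4), and where the mutation lies relative to these reads is not given in the sources used here. The *cbp-1* call was lost without fasted replicate 4, fed replicate 1 or fed replicate 3, at adjusted p up to 0.113, and the *jmjd-3.1* call was lost without any 1 library other than fed replicate 2, at adjusted p up to 0.106. Both calls were also lost with DESeq2, with its size factors in edgeR and with no filter, at adjusted p up to 0.124 for *cbp-1* and 0.226 for *jmjd-3.1*, and the *jmjd-3.1* call with 8 libraries alone. Because neither target was lower, the animals are called labelled-deficient throughout. Among 10 genes for H3K27 acetyltransferases, demethylases and the methyltransferase complex, 6 rose and 0 fell, and with the size factors of DESeq2 inside edgeR 3 rose.

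Fasting for a day changed the messenger RNA of labelled-deficient animals broadly. Of 15840 genes tested, 3109 rose, which is 19.6%, and 2485 fell, which is 15.7%, so 35.3% of all genes were called in 1 direction or the other. The counts of each gene list are to be read beside these shares. With the DESeq2 size factors the split was 2213 higher and 2966 lower, so the balance of directions depends on the scaling. Among larger changes falls were more numerous than rises: 999 genes, 6.31%, were at least 2-fold lower, and 711 genes, 4.49%, were at least 2-fold higher, and with the DESeq2 size factors these were 1117 and 574. The fasted and fed libraries did not overlap for 5640 genes, or 35.6%, and the median log2 change over all genes was 0.11. The 10 largest rises and 10 largest falls were taken among called genes with a mean of at least 5 CPM and no overlap between fasted and fed libraries. The separation of the libraries was therefore fixed by the choice for these genes. The rises included *acs-2*, *sodh-1* and *aqp-1*. The 10 largest falls held 2 yolk genes, 4 cuticle collagen genes, the lysozyme gene *lys-2* and the saposin-like gene *spp-4*.

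The largest of these rises was in T22F3.11 (WBGene00020700, bases 3612158 to 3614553 on the minus strand of chromosome V). It had 112, 114, 115 and 121 CPM in fasted libraries and 0.488, 0.537, 0.264 and 0.455 CPM in fed libraries, where it had 6 to 15 reads, so the size of its rise is imprecise. The log2 change was 8.01 (SE 0.18, adjusted p 7.6e-19 in edgeR). *sodh-1* (WBGene00010790, bases 11888248 to 11889650 on the plus strand of chromosome V) encodes an alcohol dehydrogenase of the sorbitol dehydrogenase family and had 1259.7, 1280.4, 1399 and 1279 CPM fasted against 23.5, 23.2, 28.4 and 19.1 CPM fed. All fasted libraries were far above all fed ones, at a log2 change of 5.79 (SE 0.14, adjusted p 1.83e-18 in edgeR). *acs-2* (WBGene00009221, bases 15567394 to 15569897 on the plus strand of chromosome V) encodes the acyl-CoA synthetase that prepares fatty acids for oxidation in mitochondria. It had 575, 605, 624 and 610.4 CPM in fasted and 22.9, 27.2, 26.6 and 21.5 CPM in fed libraries, with each group close together and a log2 change of 4.62 (SE 0.12, adjusted p 8.15e-18 in edgeR). *aqp-1*, an aquaporin channel gene, had 169, 146, 156 and 159 CPM fasted and 7.19, 7.48, 6.52 and 8.64 CPM fed, and rose by 4.40 (SE 0.13) on the log2 scale.

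Genes for a pair of secreted proteins of the SCP-like family stood among the leading rises. *scl-2* had 683, 682, 740.3 and 782 CPM in fasted and 48.9, 57.1, 50.4 and 55.6 CPM in fed libraries, a log2 change of 3.77 (SE 0.12, adjusted p 6.58e-17 in edgeR). *scl-11*, which lies less than 10 kb from it on chromosome IV, had 10.2, 15.4, 10.6 and 16.21 CPM in fasted libraries and 3 to 7 reads in fed ones, so its log2 change of 5.92 (SE 0.30) is imprecise in size. Genes without a name in the files completed the 10 leading rises. C27H5.6 changed by 4.74 (SE 0.21), F46C5.1 by 4.3 (SE 0.12), C23G10.11 by 4.3 (SE 0.20) and F53A9.8 by 4.19 (SE 0.25). C27H5.6 had 6 to 19 reads in fed libraries.

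**Figure D1:**
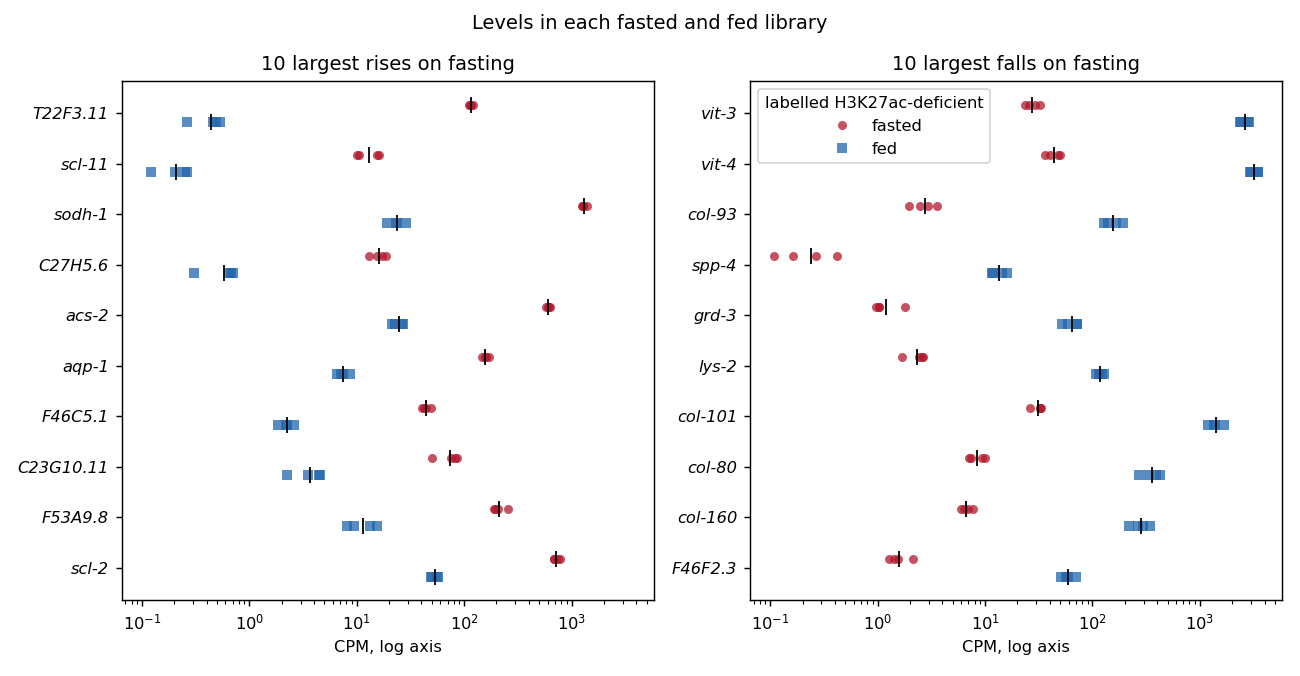
CPM, on a log axis, of the 10 genes with the largest rise (left) and the 10 with the largest fall (right) on fasting, with a point for each labelled-deficient library (circles fasted, squares fed, n = 4 each) and a tick at the mean. Only genes whose fasted and fed libraries did not overlap could be chosen. *vit-3* had 23.5 to 32.5 CPM fasted and 2377 to 2846 CPM fed.

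Yolk genes gave the largest falls. Vitellogenins are lipid-carrying yolk proteins made in the intestine and taken up by oocytes. *vit-3* (WBGene00006927, bases 3567355 to 3572549 on the minus strand of chromosome X) had 25.5, 23.5, 28.9 and 32.5 CPM in fasted libraries and 2377, 2823, 2435 and 2846 CPM in fed libraries. Each fed library had many times the level of any fasted one, and the log2 change was -6.57 (SE 0.15, adjusted p 7.6e-19 in edgeR). *vit-4* had 36.5, 40.3, 47.3 and 50.2 CPM fasted and 2913, 3495, 2998 and 3484 CPM fed, a change of -6.21 (SE 0.15, adjusted p 1.83e-18 in edgeR), and *vit-1* had 126 ± 16.44 CPM fasted and 935 ± 74.2 CPM fed (SD, n = 4), a change of -2.90 (SE 0.13). *vit-5* fell by far less, with 6402 ± 687 CPM fasted and 12879 ± 1409 CPM fed (SD, n = 4) and a change of -1.01 (SE 0.13, adjusted p 2.46e-06 in edgeR). The other yolk genes, *vit-2* and *vit-6*, did not pass the test, and like *vit-5* they were abundant in both groups. *vit-2* had 12799 ± 1168 CPM fasted and 11144 ± 1333 CPM fed (SD, n = 4) and changed by 0.20 (SE 0.14, adjusted p 0.29 in edgeR) and *vit-6* changed by -0.08 (SE 0.14, adjusted p 0.7 in edgeR). Thus 4 of 6 yolk genes fell and 0 rose, and the summed yolk level was 0.360% to 0.469% of all TPM (each transcript's level per length, out of the sum over all transcripts) in fasted libraries and 0.498% to 0.599% in fed libraries. TPM and CPM are scaled in different ways. *vit-6* had a mean of 1216 TPM fasted and 1143 TPM fed, beside a log2 change of -0.08 in the test. Overlap or separation of summed TPM is therefore not a test of change on the CPM scale. The *vit* genes resemble one another, and reads may be divided between them with error.

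**Figure D2:**
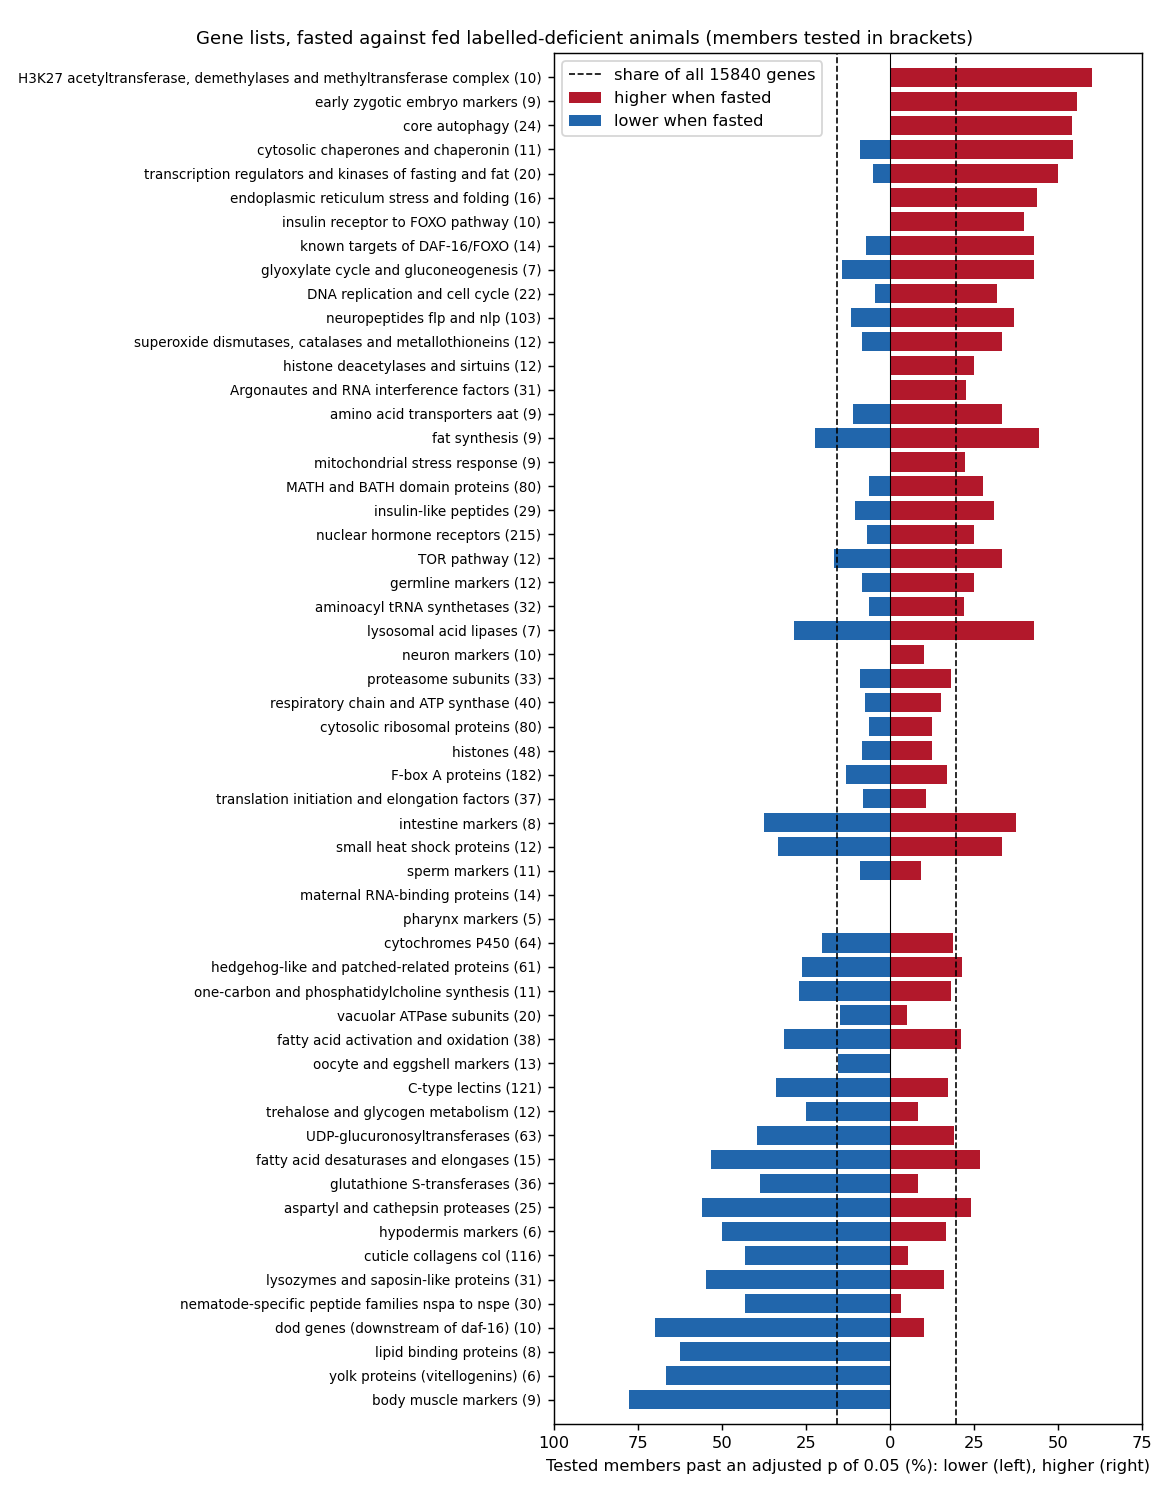
Share of the tested members of each gene list that rose (right, red) or fell (left, blue) on fasting in labelled-deficient animals, in percent, with the number tested in brackets and only lists with at least 5 tested members. Dashed lines mark the shares over all 15840 genes, 19.6% higher and 15.7% lower. Core autophagy, with 13 of 24 members higher, stands near the top, and body muscle, yolk and lipid binding protein genes, with no member higher, stand at the bottom.

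Lipases and fatty acid oxidation came next in the order of fat use. Of 7 lysosomal acid lipase genes tested, 3 rose and 2 fell, at a median log2 change of 0.41. *lipl-3*, which HLH-30 induces in starved animals, had 19.4, 15.2, 16.3 and 17.3 CPM in fasted and 1.95, 1.86, 1.72 and 1.87 CPM in fed libraries, a change of 3.2 (SE 0.14, adjusted p 4.16e-14 in edgeR) with no overlap. *lipl-5* rose by 0.56 (SE 0.10) and *lipl-7* changed by -0.42 (SE 0.14). The *lipl-7* call was lost without any 1 of fasted replicates 2, 3 and 4 and fed replicates 1 and 3, with library size alone and with a 5 CPM filter, at adjusted p up to 0.0924. *lipl-4* had 14 to 22 reads in fasted and 0 to 3 reads in fed libraries and was too scarce for a fold change. Among 38 genes of fatty acid activation and oxidation, 8 rose and 12 fell, so the list as a whole did not move 1 way, and the DESeq2 size factors made it 3 and 15. The 8 of 38 was near the 19.6% that rose over all genes. Beside *acs-2*, the rises were led by *hacd-1*, a hydroxyacyl-CoA dehydrogenase gene, which had 148 ± 4.53 CPM fasted and 45.6 ± 2.47 CPM fed (SD, n = 4) and changed by 1.70 (SE 0.10, adjusted p 2.57e-12 in edgeR). *cpt-6*, a carnitine palmitoyltransferase gene, rose by 0.58 (SE 0.12).

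Several falls in this list were large. *acdh-1*, an acyl-CoA dehydrogenase gene of propionate breakdown, had 5.71, 6.64, 6.31 and 5.96 CPM in fasted and 123, 106, 107 and 88.2 CPM in fed libraries, a change of -4.11 (SE 0.17, adjusted p 6.45e-15 in edgeR). Every fed library lay far above every fasted one. *ech-9*, an enoyl-CoA hydratase gene, changed by -3.04 (SE 0.19), and *acox-1.5*, a peroxisomal acyl-CoA oxidase gene, by -2.58 (SE 0.13). The summed level of all 38 genes was 0.157% to 0.166% of all TPM in fasted and 0.127% to 0.134% in fed libraries, and the ranges did not overlap. Without *acs-2* and *hacd-1* the sum was 0.120% to 0.126% fasted and 0.122% to 0.129% fed, and the ranges overlapped.

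Desaturases and elongases shape the fatty acids that are stored or placed in membranes. Of 15 tested, 4 rose and 8 fell, at a median of -0.31. *fat-7*, a stearoyl-CoA desaturase gene, had 1.57, 2.34, 1.13 and 1.13 CPM in fasted and 11.1, 9.67, 8.90 and 11.46 CPM in fed libraries, a change of -2.72 (SE 0.18, adjusted p 3.82e-11 in edgeR). *elo-5*, an elongase gene of branched-chain fatty acids, had 70.6, 84.4, 79.4 and 65.7 CPM fasted and 269, 201, 197 and 148 CPM fed, and changed by -1.44 (SE 0.19, adjusted p 3.34e-06 in edgeR). *fat-5*, a palmitoyl-CoA desaturase gene, changed by -1.19 (SE 0.12). Rises were smaller: *fat-2* and *fat-3*, desaturase genes of polyunsaturated fatty acid synthesis, changed by 0.66 (SE 0.11) and 0.53 (SE 0.11), and *elo-6*, another elongase gene, by 0.52 (SE 0.18). The *elo-6* call was lost without fasted replicate 2 or 3 or fed replicate 3 or 4, with the DESeq2 size factors and with no filter, at adjusted p up to 0.105. The summed level of the list was 0.234% to 0.266% of all TPM fasted and 0.220% to 0.252% fed, with overlap.

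Fat synthesis genes moved both ways, with 4 of 9 higher and 2 lower. *pod-2*, the acetyl-CoA carboxylase gene, had 620.1, 606, 679 and 703 CPM in fasted and 286, 404, 333 and 401 CPM in fed libraries and rose by 0.87 (SE 0.14, adjusted p 2.96e-05 in edgeR). *sbp-1*, the SREBP transcription factor gene, rose by 0.71 (SE 0.12). The next enzyme after *pod-2*, the fatty acid synthase gene *fasn-1*, went the other way, with 57.0, 60.4, 55.7 and 64.4 CPM fasted and 87.0, 119, 86.4 and 110.4 CPM fed and a change of -0.76 (SE 0.14, adjusted p 0.000126 in edgeR). *dgat-2*, whose product makes triacylglycerol, had 43 ± 3.1 CPM fasted and 90.1 ± 4.88 CPM fed (SD, n = 4) and changed by -1.07 (SE 0.10, adjusted p 1.79e-08 in edgeR).

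Sugar synthesis from fat was marked by 1 large rise. *icl-1* (WBGene00001564, bases 724332 to 728004 on the minus strand of chromosome V), which encodes both enzymes particular to the glyoxylate cycle, had 599, 579, 649 and 685 CPM in fasted and 93.6, 121, 114 and 117 CPM in fed libraries, and changed by 2.49 (SE 0.13, adjusted p 5.26e-13 in edgeR). Of the 7 genes of this cycle and of gluconeogenesis, 3 rose and 1 fell. Phosphoenolpyruvate carboxykinase genes split: *pck-2* changed by 0.67 (SE 0.11) and *pck-1* by -0.44 (SE 0.13). *pyc-1*, for pyruvate carboxylase, rose by 0.46 (SE 0.12). Among 12 trehalose and glycogen genes 1 rose and 3 fell, but with library size scaling alone 4 rose and 2 fell. The rise was the trehalase gene *tre-5*, with 11 ± 1.11 CPM fasted and 1.78 ± 0.594 CPM fed (SD, n = 4) and a change of 2.61 (SE 0.21).

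One-carbon metabolism supplies methyl groups for phosphatidylcholine and for histones. Of 11 genes, 2 rose and 3 fell, and with library size alone 6 rose and 3 fell. *sams-1*, an S-adenosylmethionine synthetase gene, had 16.15 ± 1.6 CPM fasted and 43.7 ± 4.47 CPM fed (SD, n = 4), a change of -1.44 (SE 0.12, adjusted p 2.55e-09 in edgeR). *pmt-2*, a phosphoethanolamine methyltransferase gene, changed by -1.51 (SE 0.10, adjusted p 9.55e-11 in edgeR). *ahcy-1*, whose product clears S-adenosylhomocysteine, rose by 0.48 (SE 0.15), a call lost without fasted replicate 4, fed replicate 1 or fed replicate 3, at adjusted p up to 0.0588.

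Lipid binding proteins carry fatty acids inside cells or between tissues. Of 8 *lbp* genes tested, 0 rose and 5 fell, at a median log2 change of -0.61, beside 0.11 over all genes. *lbp-7* had 9.58, 11.4, 10.8 and 9.24 CPM in fasted and 35.1, 29.6, 30.3 and 22.9 CPM in fed libraries, with no overlap and a change of -1.52 (SE 0.18, adjusted p 4.54e-07 in edgeR). *lbp-2* had 622 ± 54.9 CPM fasted and 1335 ± 219 CPM fed (SD, n = 4) and changed by -1.1 (SE 0.17).

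Genes of the recycling system changed unevenly. Of 24 core autophagy genes 13 rose and 0 fell, at a median log2 change of 0.35, and 11 rose with the DESeq2 size factors. *lgg-1*, the ATG8 homologue that coats autophagosomes, had 2291, 2662, 2659 and 2269 CPM in fasted and 2025, 1834, 1975 and 1374 CPM in fed libraries, a small rise of 0.46 (SE 0.15) that was lost without fasted replicate 2 or 3 or fed replicate 4 and with no filter, at adjusted p up to 0.0968. *atg-9*, a membrane protein of phagophore growth, had 76.2 ± 6.21 CPM fasted and 48.9 ± 10.2 CPM fed (SD, n = 4) and rose by 0.64 (SE 0.15, adjusted p 0.00228 in edgeR). *unc-51*, the ULK kinase gene that starts autophagy, rose by 0.60 (SE 0.13). *bec-1*, the Beclin gene, changed by -0.01 (SE 0.10), which did not pass the test. The summed level of the list was 0.506% to 0.578% of all TPM in fasted and 0.313% to 0.430% in fed libraries, and fed replicate 4 was the lowest. *lgg-1* made up 79.9% of that sum fasted and 77.8% fed, and the other members summed to 0.108% to 0.114% fasted and 0.0798% to 0.0877% fed.

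Lysosomal proteases changed in opposite directions by gene. Of 25 tested, 6 rose and 14 fell, at a median of -0.59. *cpr-4* (WBGene00000784, bases 6614674 to 6615851 on the plus strand of chromosome V), a cathepsin B gene, had 274, 309, 314 and 307 CPM in fasted and 26.2, 34.4, 27 and 27.9 CPM in fed libraries, with no overlap and a change of 3.38 (SE 0.13, adjusted p 3.96e-15 in edgeR). *cpr-1*, another cathepsin B gene, had 349 ± 12.4 CPM fasted and 87.2 ± 9.01 CPM fed (SD, n = 4) and rose by 2.00 (SE 0.14, adjusted p 8.21e-11 in edgeR). The aspartyl protease genes *asp-1* and *asp-2* fell. *asp-1* had 51.8, 49.4, 54.6 and 53 CPM fasted and 622, 816, 729.6 and 755 CPM fed, a change of -3.81 (SE 0.15, adjusted p 7.66e-15 in edgeR), and *asp-2* had 17.3, 14.2, 13.1 and 14.8 CPM fasted and 319.8, 327, 295 and 319 CPM fed, a change of -4.41 (SE 0.12, adjusted p 1.46e-17 in edgeR). Vacuolar ATPase subunits, which acidify lysosomes, were mostly not called: 1 of 20 rose and 3 fell, at a median of -0.07. *vha-5* changed by -1.78 (SE 0.15) and *vha-6*, the intestinal subunit, by 0.26 (SE 0.10). The *vha-6* call was lost without any 1 library other than fed replicate 4, and with DESeq2, its size factors, no filter or 8 libraries alone, at adjusted p up to 0.316.

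**Figure D3:**
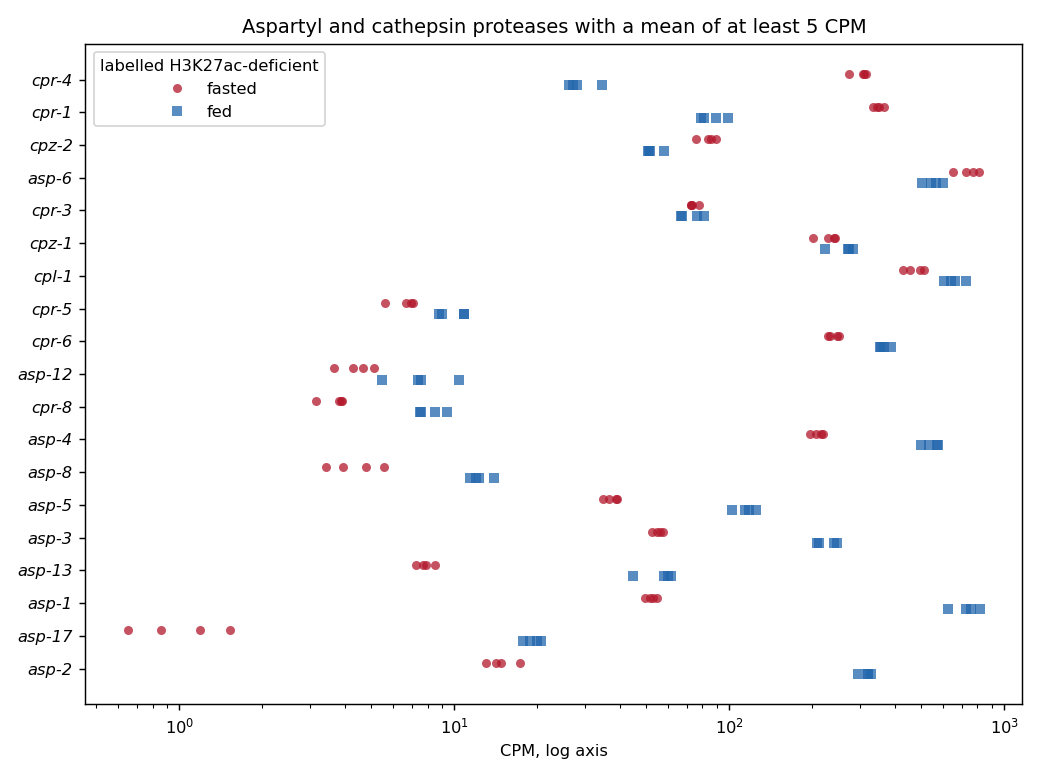
CPM, on a log axis, of the aspartyl (*asp*) and cathepsin (*cpr*, *cpl*, *cpz*) protease genes with a mean of at least 5 CPM, ordered by their change, with a point for each labelled-deficient library (circles fasted, squares fed, n = 4 each). The cathepsin B genes *cpr-4* and *cpr-1* at the top rose, and *asp-1* and *asp-2* near the bottom fell.

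Regulators of the fasted state rose modestly. Of 20 transcription regulators and kinases 10 rose and 1 fell, and with the DESeq2 size factors 6 rose and 2 fell. *aak-1*, an AMP-activated kinase gene, had 62.9, 52.5, 49.7 and 57.3 CPM in fasted and 36.7, 37.2, 29.5 and 39.4 CPM in fed libraries and rose by 0.64 (SE 0.11, adjusted p 5.69e-05 in edgeR). *crtc-1*, a coactivator gene that this kinase restrains, rose by 0.65 (SE 0.12). *hlh-30*, for the TFEB homologue, and *nhr-49*, for a nuclear receptor of fat oxidation, rose by 0.38 (SE 0.14) and 0.31 (SE 0.10). The *hlh-30* call was lost without any 1 fasted library or without fed replicate 1 or 3, at adjusted p up to 0.154, and the *nhr-49* call without fasted replicate 1 or 4 or fed replicate 3, at adjusted p up to 0.0843. Both were also lost with DESeq2, with its size factors in edgeR and with no filter, and *nhr-49* with 8 libraries alone, at adjusted p up to 0.154 for *hlh-30* and 0.176 for *nhr-49*. *mxl-3*, whose product represses lysosomal lipase genes in fed animals, had 16.52, 15.2, 16.8 and 17.4 CPM fasted and 31.1, 28.8, 30.5 and 27.5 CPM fed, and was the member that fell, with a change of -0.84 (SE 0.10, adjusted p 1.27e-06 in edgeR). Of 10 genes from the insulin receptor to FOXO, 4 rose and 0 fell. The receptor gene *daf-2* rose by 0.64 (SE 0.18) and the FOXO gene *daf-16* by 0.63 (SE 0.12, adjusted p 0.000284 in edgeR), and the kinase gene *akt-1* changed by 0.02 (SE 0.14) without passing the test.

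Genes known as targets of DAF-16 rose in part. Of 14 tested, 6 rose and 1 fell, and their summed level was 0.444%, 0.511%, 0.495% and 0.490% of all TPM in fasted and 0.219%, 0.242%, 0.214% and 0.214% in fed libraries. The metallothionein gene *mtl-1* had 129.9, 213, 201 and 169 CPM fasted and 30.7, 36.2, 28.1 and 21.7 CPM fed and changed by 2.61 (SE 0.21, adjusted p 1.21e-09 in edgeR). *dod-3* had 30.1 ± 5.07 CPM fasted and 6.99 ± 0.686 CPM fed (SD, n = 4), a change of 2.11 (SE 0.14). In another list, the 10 *dod* genes named as downstream of *daf-16*, 1 rose and 7 fell, at a median of -1.32. That name does not say in which direction *daf-16* acts on each gene. The small heat shock gene *hsp-12.6* reached 4.14, 4.3, 4.80 and 3.28 CPM fasted, against 0.528, 0.788, 0.396 and 0.505 CPM fed, and changed by 2.86 (SE 0.21). *sod-3*, a superoxide dismutase gene often used as a DAF-16 reporter, fell, with 0.958, 0.436, 1.56 and 1.55 CPM fasted and 2.44, 2.22, 2.33 and 1.82 CPM fed and a change of -0.99 (SE 0.26, adjusted p 0.0058 in edgeR). *hsp-12.6* and *sod-3* lay under the 5 CPM limit and were chosen after their values were seen.

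Protein folding genes rose in part. Of 12 small heat shock genes 4 rose and 4 fell. *sip-1* had 1194 ± 190.2 CPM fasted and 502 ± 128 CPM fed (SD, n = 4), a change of 1.25 (SE 0.21), and *hsp-12.3* changed by 2.94 (SE 0.17), while *hsp-17* and *hsp-43* changed by -2.48 (SE 0.18) and -1.29 (SE 0.11). Of 11 cytosolic chaperone and chaperonin genes 6 rose and 1 fell, at a median of 0.38. The chaperonin subunit genes *cct-7* and *cct-3* rose by 0.60 (SE 0.14) and 0.57 (SE 0.10), and *hsp-1*, the constitutive HSP70 gene, had 1366, 1648, 1549 and 1762 CPM fasted and 916, 1198, 957 and 1214 CPM fed and rose by 0.56 (SE 0.14, adjusted p 0.00306 in edgeR). The HSP70 gene *hsp-70* fell, with a change of -0.67 (SE 0.14). In the endoplasmic reticulum 7 of 16 genes rose and 0 fell. *crt-1*, for calreticulin, had 849.6, 965, 1001 and 1077 CPM fasted and 389.6, 476, 395 and 429 CPM fed and changed by 1.2 (SE 0.12, adjusted p 6.78e-08 in edgeR), and *pdi-6*, a protein disulfide isomerase gene, rose by 0.57 (SE 0.10).

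The machinery of protein synthesis changed little and in no fixed direction. Of 80 cytosolic ribosomal protein genes 10 rose and 5 fell, but with the DESeq2 size factors 4 rose and 7 fell. *rpl-7A* rose by 0.69 (SE 0.14) and *rpl-11.2* changed by -0.59 (SE 0.15). The summed ribosomal level was 22.7% to 24.2% of all TPM in fasted and 20.1% to 24.0% in fed libraries, which overlapped. Translation factors gave 4 of 37 higher and 3 lower, and 1 and 7 with the DESeq2 size factors, and aminoacyl tRNA synthetases gave 7 of 32 higher and 2 lower, against 2 and 6. Proteasome subunits gave 6 of 33 higher and 3 lower, against 1 and 3, and respiratory chain genes gave 6 of 40 higher and 3 lower, against 2 and 5. In these 5 lists the direction therefore rests on the scaling. Over all genes 19.6% rose and 15.7% fell, and the rising shares of the tRNA synthetase and proteasome lists were near that.

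Cuticle collagen genes held many of the steepest falls. Collagens of the *col* family build the cuticle, which the hypodermis secretes. Of 116 tested, 6 rose and 50 fell, at a median of -0.34. *col-101* (WBGene00000675, bases 325435 to 327020 on the minus strand of chromosome IV) had 26.5, 32.3, 32.3 and 32.9 CPM in fasted and 1180.5, 1680.0, 1343 and 1396 CPM in fed libraries, a change of -5.50 (SE 0.19, adjusted p 5.48e-16 in edgeR). *col-80* had 10.08, 7.08, 7.33 and 9.36 CPM fasted and 271, 423, 339 and 386 CPM fed, and *col-160* had 6.72 ± 0.736 CPM fasted and 280.5 ± 51.6 CPM fed (SD, n = 4), with changes of -5.38 (SE 0.23) and -5.38 (SE 0.19). *col-93* had 2.95, 1.96, 2.48 and 3.58 CPM fasted and 127, 191, 141 and 164 CPM fed, a change of -5.82 (SE 0.25, adjusted p 1.41e-14 in edgeR). These 4 genes are among the 10 largest falls, for which a lack of overlap was a condition of the choice. The summed collagen level was 0.117%, 0.118%, 0.127% and 0.121% of all TPM in fasted libraries and 1.36%, 1.75%, 1.43% and 1.37% in fed libraries without overlap. Members of the family may share reads.

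Markers of the hypodermis were read beside the collagens. Of 6 hypodermis markers 1 rose and 3 fell, and their summed level was 0.00251% to 0.00276% of all TPM fasted and 0.0307% to 0.0415% fed. The adult collagen gene *col-19*, which stands in both lists, made up 62.6% of that sum fasted and 95.9% fed, and the other markers summed to 0.000901% to 0.00104% fasted and 0.00123% to 0.00153% fed. It had 25.4 ± 1.97 CPM fasted and 549.7 ± 96.2 CPM fed (SD, n = 4), a change of -4.44 (SE 0.19, adjusted p 1.68e-14 in edgeR). The part of hypodermal RNA content in the collagen falls was not tested. *grd-3*, a hedgehog-like secreted protein gene, had 1.04, 1.03, 0.970 and 1.79 CPM fasted and 52.3, 72.3, 71.9 and 59.5 CPM fed, a change of -5.75 (SE 0.20). Over the 61 hedgehog-like and patched-related genes 13 rose and 16 fell, beside 19.6% and 15.7% over all genes, so *grd-3* does not stand for its family. F46F2.3, which has no name in the files, had 1.27, 2.12, 1.56 and 1.43 CPM fasted and 50.6, 71.0, 59.7 and 57.3 CPM fed and changed by -5.23 (SE 0.23).

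Most body muscle markers fell. Of 9 body muscle markers 0 rose and 7 fell, at a median of -1.14. *pat-10*, for troponin C, had 492, 488, 471 and 458 CPM in fasted and 1434, 1455, 1541 and 1304 CPM in fed libraries, a change of -1.59 (SE 0.12, adjusted p 3.91e-10 in edgeR). *mup-2*, for troponin T, changed by -1.43 (SE 0.13), and the giant sarcomere protein gene *unc-89* by -1.38 (SE 0.12). *unc-54*, the main body wall myosin gene, had 338 ± 29.5 CPM fasted and 659 ± 113 CPM fed (SD, n = 4), a change of -0.96 (SE 0.14). *myo-3*, the other body wall myosin gene, did not follow, at 61.1, 57.8, 58.4 and 63.6 CPM fasted and 54.2, 65.3, 52.8 and 62.4 CPM fed and a change of 0.04 (SE 0.12) that did not pass the test. The summed muscle level was 0.108%, 0.0986%, 0.0974% and 0.0923% of all TPM in fasted and 0.256%, 0.254%, 0.261% and 0.231% in fed libraries, of which *pat-10* made up 75.5% fasted and 80.9% fed. Without it the sum was 0.0238% to 0.0251% fasted and 0.0433% to 0.0527% fed.

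**Figure D4:**
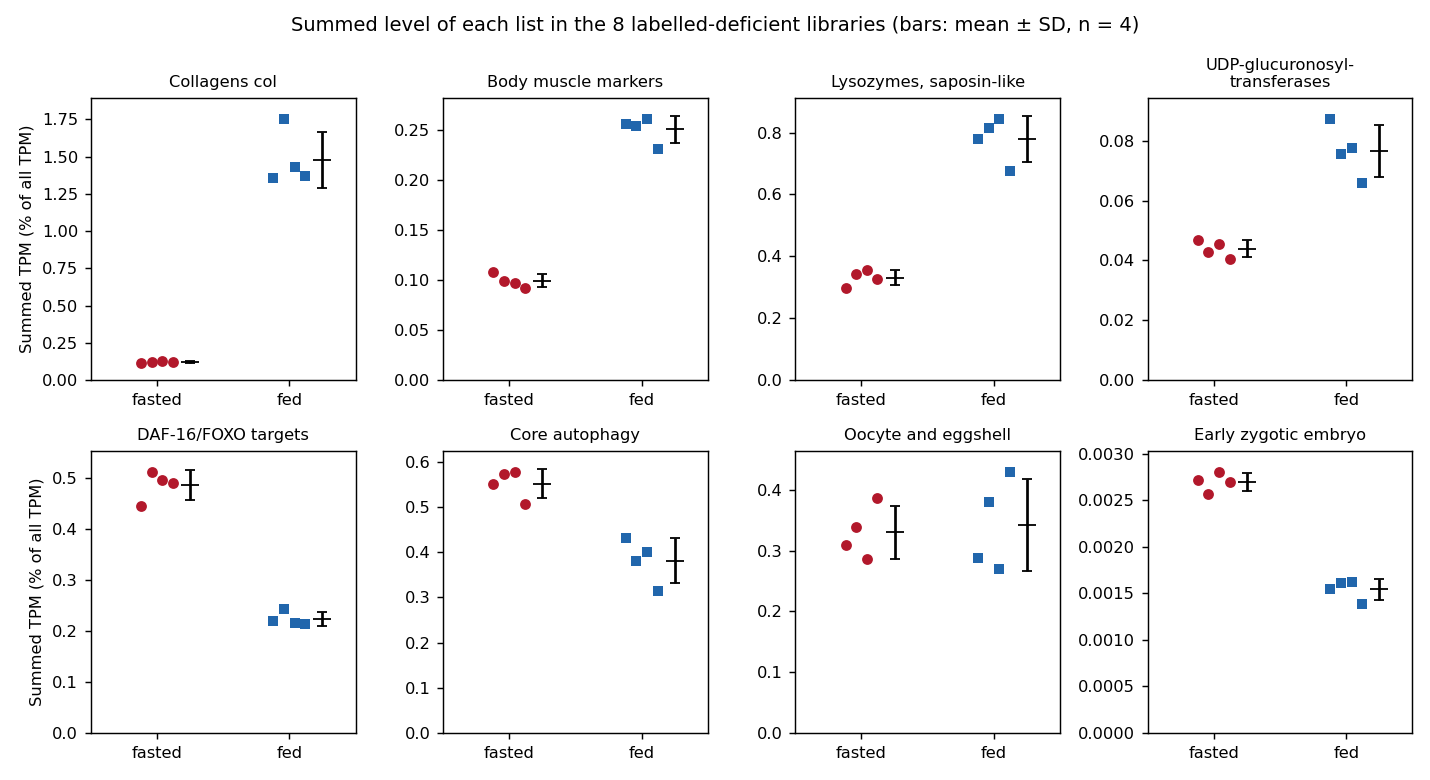
Summed level of 8 gene lists, in percent of all TPM, in each labelled-deficient library (circles fasted, squares fed), with the mean ± SD (n = 4) beside the points. Collagen, muscle, lysozyme and UDP-glucuronosyltransferase sums are lower in every fasted library, DAF-16 target, autophagy and embryo sums are higher, and oocyte sums overlap.

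Genes of antimicrobial defence more often fell than rose. Of 31 lysozyme and saposin-like genes 5 rose and 17 fell, at a median of -0.81, and the summed level was 0.298% to 0.356% of all TPM fasted and 0.675% to 0.845% fed. The lysozyme gene *lys-2* had 2.61, 2.45, 2.64 and 1.67 CPM in fasted and 128, 115, 107 and 121.9 CPM in fed libraries, a change of -5.64 (SE 0.18, adjusted p 1.52e-16 in edgeR). *lys-1*, which lies within 10 kb of it on chromosome V, had 37.5 ± 3.90 CPM fasted and 252 ± 25.9 CPM fed (SD, n = 4), a change of -2.75 (SE 0.14). *spp-4*, a saposin-like antimicrobial peptide gene, had 2 to 7 reads per fasted library and 11.7, 14.3, 15.9 and 11.7 CPM in fed libraries, and its change of -5.78 (SE 0.26) is imprecise. *lys-3*, within 10 kb of both, went the other way, with 58.1, 64.6, 62.5 and 57.0 CPM fasted and 11.1, 9.60, 8.10 and 6.62 CPM fed and a change of 2.77 (SE 0.22, adjusted p 1.06e-09 in edgeR). Of 121 C-type lectin genes 21 rose and 41 fell. *clec-67* changed by -4.44 (SE 0.12), *clec-258* by -4.67 (SE 0.38), and *clec-264* rose by 1.75 (SE 0.15). Of 10 *dod* genes, named as downstream of *daf-16*, 1 rose and 7 fell. Among those that fell, *dod-23* had 48.9 ± 0.802 CPM fasted and 371 ± 25.3 CPM fed (SD, n = 4) and a change of -2.92 (SE 0.11). Intestine markers gave 3 of 8 higher and 3 lower, but 1 and 4 with the DESeq2 size factors. Their summed level was 0.0168% to 0.0187% of all TPM fasted and 0.0205% to 0.0222% fed, and without its most abundant gene, *act-5*, it was 0.00825% to 0.00949% fasted and 0.00886% to 0.00959% fed, with overlap. The part of intestinal RNA content in these falls was not tested.

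Enzymes that modify drugs and toxins differed by family. UDP-glucuronosyltransferase genes gave 12 of 63 higher and 25 lower, and summed to 0.0405% to 0.0469% of all TPM fasted and 0.0659% to 0.0873% fed. *ugt-26* had 18, 17.5, 18.4 and 17.6 CPM in fasted and 260.2, 211, 216 and 191 CPM in fed libraries, a change of -3.62 (SE 0.16, adjusted p 2.47e-14 in edgeR), *ugt-44* changed by -3.51 (SE 0.15), and *ugt-54* rose by 2.06 (SE 0.20). Glutathione S-transferase genes gave 3 of 36 higher and 14 lower, with *gst-24* at 48.6 ± 4.79 CPM fasted and 268 ± 9.32 CPM fed (SD, n = 4), a change of -2.46 (SE 0.11), and *gst-10* at -2.42 (SE 0.13). Cytochrome P450 genes gave 12 of 64 higher and 13 lower, beside 19.6% and 15.7% over all genes, so the rising share was near that of all genes. *cyp-34A9* changed by 2.25 (SE 0.21) and *cyp-14A5* by -2.31 (SE 0.11).

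Genes of the neuropeptide families *flp* and *nlp* rose more often than they fell. Of 103 neuropeptide genes 38 rose and 12 fell, at a median log2 change of 0.37, while their summed level was 0.318% to 0.374% of all TPM fasted and 0.333% to 0.447% fed, with overlap. *nlp-39* had 16.52, 17.3, 19.7 and 19.2 CPM in fasted and 5.89, 6.84, 5.46 and 4.29 CPM in fed libraries, a change of 1.68 (SE 0.17, adjusted p 5.92e-08 in edgeR). *nlp-51* rose by 2.3 (SE 0.24) and *flp-27* by 1.23 (SE 0.16). The peptide genes *nlp-24* and *nlp-27* fell, with changes of -2.01 (SE 0.25) and -2.22 (SE 0.31). *nlp-27* made up 5.33% of the summed level of the list fasted and 19.3% fed. Without it the sum was 0.303% to 0.351% fasted and 0.277% to 0.3575% fed, with overlap. Among 10 neuron markers 1 rose and 0 fell, at a median log2 change of -0.03. TPM are not on the scale of that test, and the summed level of the markers was 0.0479% to 0.0503% of all TPM fasted and 0.0398% to 0.0435% fed. Without its most abundant gene, *snb-1*, it was 0.0153% to 0.0199% fasted and 0.0122% to 0.0157% fed, with overlap. Their part in the neuropeptide rises was not tested. The rising marker was *sbt-1*, whose product serves the enzyme that cuts neuropeptide precursors, at 0.57 (SE 0.13).

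Insulin-like peptide genes gave 9 of 29 higher and 3 lower. *ins-22* had 8.59, 14.8, 13.3 and 10.7 CPM in fasted and 1.46, 1.54, 1.1 and 1.31 CPM in fed libraries, a change of 3.112 (SE 0.22, adjusted p 1.44e-10 in edgeR) without overlap. *ins-7*, an agonist of the DAF-2 receptor that the intestine makes, had 15.4, 21.9, 22.5 and 18.8 CPM fasted and 70, 50.8, 50.5 and 41.4 CPM fed and changed by -1.44 (SE 0.20, adjusted p 6.42e-06 in edgeR). Nuclear hormone receptor genes gave 54 of 215 higher and 15 lower. *nhr-21* had 36.4 ± 3.08 CPM fasted and 8.30 ± 0.923 CPM fed (SD, n = 4), a change of 2.13 (SE 0.13), and *nhr-74* changed by -3.37 (SE 0.24).

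Most genes of the germline and oocyte were not called, which also holds over all genes, where 19.6% rose and 15.7% fell. Of 13 oocyte and eggshell genes 0 rose and 2 fell, at a median of -0.09, and these were the eggshell genes *perm-2* and *perm-4*, at -1.14 (SE 0.16, adjusted p 6.92e-06 in edgeR) and -1.21 (SE 0.18, adjusted p 1.89e-05 in edgeR). The yolk receptor gene *rme-2* had 323, 356, 294 and 423 CPM in fasted and 249.8, 416, 263 and 461 CPM in fed libraries and changed by 0.01 (SE 0.18). The summed oocyte level was 0.310%, 0.338%, 0.286% and 0.386% of all TPM fasted and 0.288%, 0.379%, 0.271% and 0.430% fed, and fed replicates 2 and 4 stood above fed replicates 1 and 3. Of 14 maternal RNA-binding protein genes 0 rose and 0 fell by edgeR, and 1 was higher and 1 lower at an unadjusted p under 0.05. DESeq2 gave 0 higher and 1 lower, limma voom 0 and 0, library size alone 1 and 0, no filter or 8 libraries alone 0 and 2, and the replicate block 3 and 2. Of 12 germline markers 3 rose and 1 fell, and of 11 sperm markers 1 rose and 1 fell. Early zygotic embryo markers gave 5 of 9 higher and 0 lower, at a median of 0.73, with summed levels of 0.00257% to 0.00281% of all TPM fasted and 0.00139% to 0.00162% fed. These are small levels, and how many embryos the animals held is not given in the sources used here.

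The last question was where this response differed from that of wild type, whose 8 libraries shared the estimate of spread with the other 8 and none of their levels. The difference was tested as an interaction, the log2 change in labelled-deficient animals minus that in wild type. It was positive for 2304 genes, 14.5%, and negative for 1805 genes, 11.4%. Of the 3109 genes that rose in labelled-deficient animals, 2117 also rose in wild type, 845 were not called there and 147 fell there. The interaction was positive for 233 of the 845. It was positive for all 147, which opposite calls in the same fit make nearly certain. Of the 2485 that fell in labelled-deficient animals, 1881 also fell in wild type, 488 were not called and 116 rose. The interaction was negative for 233 of the 488 and, again nearly fixed by the opposite calls, for all 116. The shares of genes called in wild type were 30.4% higher and 30.6% lower. Library size scaling alone shifted the median interaction of all genes by -0.29 and gave 989 positive and 3547 negative interactions, so the counts of each list below are also given under it.

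Vacuolar ATPase genes had the largest share of positive interactions of any list with 5 or more tested members. In labelled-deficient animals 1 of 20 rose and 3 fell, at a median log2 change of -0.07, and in wild type 0 rose and 20 fell, at -1.1. The interaction was positive for 19 of 20, and for 17 with library size alone. *vha-6* had 62.1, 60.5, 63.4 and 62.4 CPM in fasted and 47.6, 52.9, 47.6 and 59.2 CPM in fed labelled-deficient libraries, against 70.8, 81.1, 85.2 and 71.0 CPM in fasted and 236, 266, 238 and 238 CPM in fed wild-type libraries. The wild-type fed libraries stood apart from the other 12, and the interaction was 1.93 (SE 0.14, adjusted p 1.84e-09 in edgeR).

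Oocyte, maternal and neuron genes also had more positive than negative interactions. Of 13 oocyte and eggshell genes 2 fell in labelled-deficient animals and 13 in wild type, with a positive interaction for 12 of 13 and for 6 with library size alone. *rme-2* changed by 0.01 (SE 0.18) in labelled-deficient animals and by -1.17 (SE 0.18) in wild type, an interaction of 1.17 (SE 0.25, adjusted p 0.00153 in edgeR). Maternal RNA-binding genes gave 0 falls in labelled-deficient animals and 12 of 14 in wild type, with 9 positive interactions, or 3 with library size alone. Of 10 neuron markers 0 fell in labelled-deficient animals and 7 in wild type, with 6 positive interactions, or 4 with library size alone. The mean summed oocyte level was 0.330% of all TPM fasted and 0.342% fed in labelled-deficient libraries. In wild type it was 0.304% fasted and 0.698% fed. In the same order, maternal genes had 0.261%, 0.228%, 0.115% and 0.148%, and neuron markers 0.0489%, 0.0414%, 0.0369% and 0.0370%. *egl-21*, for a carboxypeptidase of neuropeptide processing, changed by 0.12 (SE 0.12) in labelled-deficient animals and by -1.48 (SE 0.12) in wild type, and *sbt-1* had an interaction of 1.36 (SE 0.19, adjusted p 1.17e-05 in edgeR).

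Neuropeptide genes had more positive than negative interactions. In labelled-deficient animals 38 of 103 rose and 12 fell, and in wild type 19 rose and 49 fell, at a median of -0.34, with 48 positive and 7 negative interactions. With library size alone these were 38 and 13. *nlp-12*, for a cholecystokinin-like peptide, had 11, 10.9, 15.5 and 12.4 CPM fasted and 4.51, 6.37, 6.43 and 5.1 CPM fed in labelled-deficient libraries, against 1.63, 1.54, 1.03 and 2.03 CPM fasted and 3.40, 11.4, 5.65 and 5.45 CPM fed in wild-type libraries. It rose in labelled-deficient animals and fell in wild type, an interaction of 3.19 (SE 0.38, adjusted p 2.13e-06 in edgeR), and the wild-type fed libraries varied widely. *flp-27* had an interaction of 1.37 (SE 0.22) and *ins-22* of 2.13 (SE 0.35). The part of the neuron markers in these interactions was not tested.

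Ribosomal protein genes fell in wild type for 47 of 80 and in labelled-deficient animals for 5. Their interaction was positive for 14, near the share of 14.5% over all genes, and negative for 0. With library size alone 8 fell in wild type and 3 interactions were positive. Cytosolic chaperone and chaperonin genes rose in labelled-deficient animals for 6 of 11 and in wild type for 0, with 5 positive interactions. That contrast did not hold under library size alone, where 8 rose in wild type and 2 interactions were positive.

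Lists of fat metabolism differed in the sign of their interactions. Fat synthesis genes gave 4 positive and 0 negative of 9, or 2 and 0 with library size alone. Fatty acid activation and oxidation genes gave 6 positive and 9 negative of 38, or 4 and 16. Over all genes 14.5% of interactions were positive and 11.4% negative, so the 6 of 38 was near the share of all genes. Lysosomal lipases rose for 3 of 7 in labelled-deficient animals and for 6 of 7 in wild type, with 4 negative interactions and 1 positive, or 6 and 0 with library size alone. *lipl-3* had 17.1 ± 1.79 CPM fasted and 1.85 ± 0.0969 CPM fed in labelled-deficient animals, against 281 ± 13.9 CPM fasted and 5.31 ± 1.19 CPM fed in wild type (SD, n = 4), an interaction of -2.53 (SE 0.20, adjusted p 4.66e-09 in edgeR). Desaturases and elongases rose for 4 of 15 in labelled-deficient animals and for 9 of 15 in wild type, with 6 negative interactions and 2 positive, or 8 and 1 with library size alone. *elo-5* fell in labelled-deficient animals and rose in wild type, with changes of -1.44 (SE 0.19) and 0.66 (SE 0.19), an interaction of -2.1 (SE 0.27, adjusted p 5.52e-06 in edgeR). *fat-5* changed by -1.19 (SE 0.12) in labelled-deficient animals and by 0.13 (SE 0.12) in wild type. *acs-2* changed by 4.62 (SE 0.12) in labelled-deficient animals and by 4.62 (SE 0.12) in wild type, and its interaction of -0.01 (SE 0.16, adjusted p 0.974 in edgeR) did not pass the test.

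Targets of DAF-16 gave 6 negative interactions and 1 positive among 14, or 7 and 0 with library size alone. *mtl-1* changed by 2.61 (SE 0.21) in labelled-deficient animals and by 5.07 (SE 0.23) in wild type. *hsp-12.6* had 4.13 ± 0.633 CPM fasted and 0.554 ± 0.166 CPM fed in labelled-deficient animals, against 222 ± 15.6 CPM fasted and 0.358 ± 0.182 CPM fed in wild type (SD, n = 4), an interaction of -6.42 (SE 0.38, adjusted p 6.11e-11 in edgeR), and its fed labelled-deficient libraries held 9 to 22 reads. The *daf-16* gene itself had the opposite sign, with an interaction of 0.84 (SE 0.17, adjusted p 0.000866 in edgeR), and *aak-1* had 1.02 (SE 0.15). Lipid binding protein genes, of which 5 of 8 fell in labelled-deficient animals, rose for 3 and fell for 3 in wild type, with 4 negative interactions and 0 positive. With library size alone 4 rose and 0 fell in wild type, so the even split there rests on the scaling, and 6 interactions were negative.

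**Figure D5:**
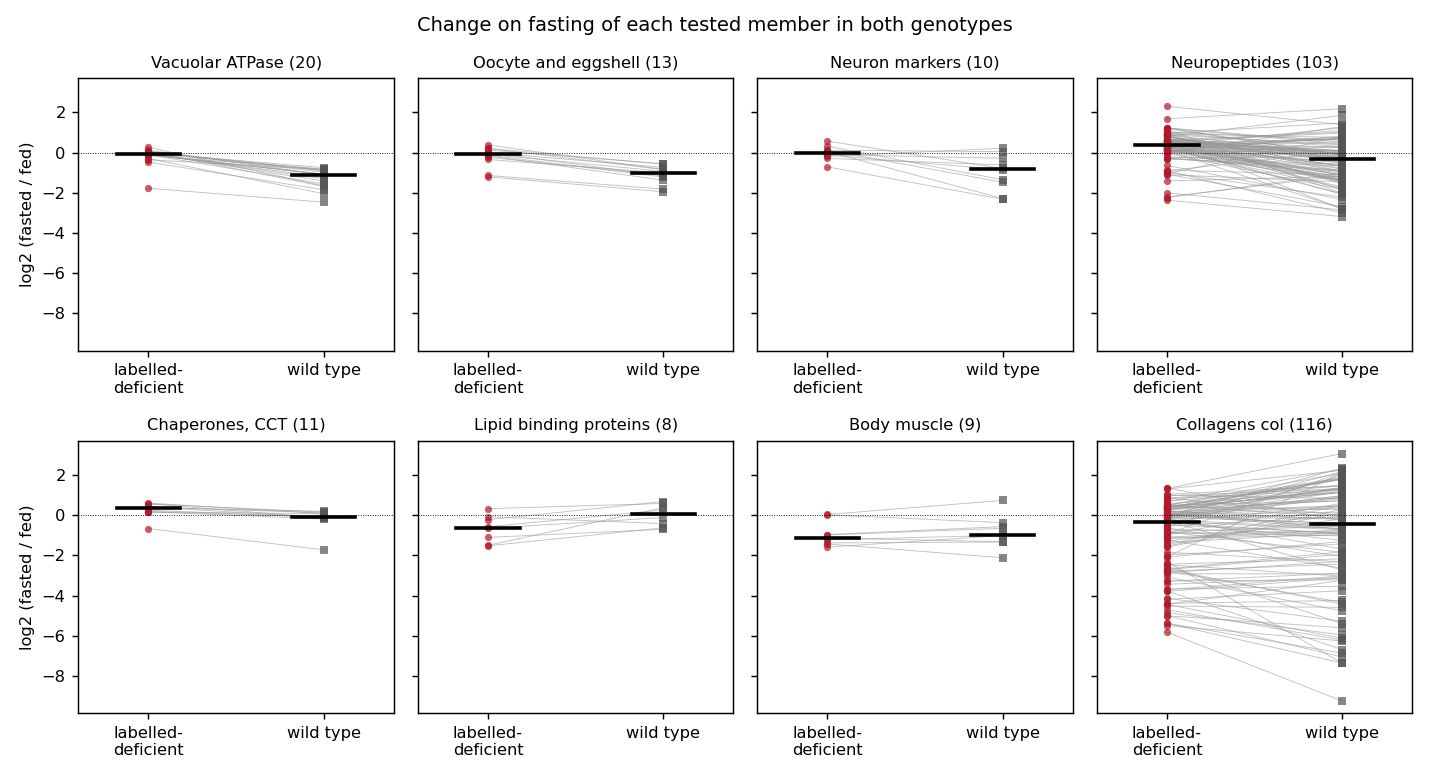
Log2 change on fasting of each tested member of 8 gene lists in labelled-deficient animals (left, circles) and wild type (right, squares), joined by a line, with a bar at the median and the number tested in brackets. Most vacuolar ATPase, oocyte and neuron members lie near 0 in labelled-deficient animals and lower in wild type, and lipid binding protein genes lie lower in labelled-deficient animals.

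Single genes with opposite or larger responses than in wild type were named by the size of the interaction. On the rising side, *lys-3* had 60.5 ± 3.57 CPM fasted and 8.86 ± 1.94 CPM fed in labelled-deficient animals, against 5.09 ± 0.966 CPM fasted and 9.56 ± 4.14 CPM fed in wild type (SD, n = 4), an interaction of 3.69 (SE 0.32, adjusted p 2.25e-08 in edgeR). *pho-11*, an acid phosphatase gene, had 137, 115, 152 and 121 CPM fasted and 60.7, 63.6, 62.7 and 60.6 CPM fed in labelled-deficient libraries, against 71.6, 72.0, 69.1 and 75.9 CPM fasted and 323, 365, 305 and 336 CPM fed in wild-type libraries. It thus rose in labelled-deficient animals and fell in wild type, an interaction of 3.28 (SE 0.14, adjusted p 1.7e-12 in edgeR). *pcp-4*, a prolyl carboxypeptidase-like gene, did the same, at 1.26 (SE 0.15) and -1.96 (SE 0.16). C50F7.5 rose by 2.92 (SE 0.13) in labelled-deficient animals and changed by 0.03 (SE 0.14) in wild type. *scl-11* had the largest interaction of this kind, 4.35 (SE 1.34), but wild-type libraries held 2 to 6 reads fasted and 0 to 2 reads fed, so its size is imprecise. Its call was lost without wild-type fed replicate 1 or 3, at adjusted p up to 0.249.

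On the falling side, *ech-9* had 2.11, 2.12, 2.05 and 1.97 CPM fasted and 20.4, 17.6, 16.8 and 13.2 CPM fed in labelled-deficient libraries, against 22.7, 25.4, 26.4 and 19.3 CPM fasted and 13.5, 10.07, 9.62 and 7.38 CPM fed in wild-type libraries. It fell in labelled-deficient animals and rose in wild type, an interaction of -4.25 (SE 0.24, adjusted p 5.62e-11 in edgeR). *smf-3*, a metal ion transporter gene of the NRAMP family, had 8.88 ± 1.07 CPM fasted and 16.9 ± 0.770 CPM fed in labelled-deficient animals, against 17.8 ± 1.96 CPM fasted and 3.115 ± 0.508 CPM fed in wild type (SD, n = 4), an interaction of -3.43 (SE 0.19, adjusted p 3.96e-11 in edgeR). *gsto-1*, an omega-class glutathione transferase gene, changed by -1.57 (SE 0.16) and 1.58 (SE 0.16). *hrg-7*, an aspartyl protease-like gene of heme signalling between tissues, fell in both genotypes but further in labelled-deficient animals, with changes of -3.81 (SE 0.12) and -0.81 (SE 0.10), an interaction of -3.0 (SE 0.15, adjusted p 1.03e-11 in edgeR). D1054.18 and T20D4.10, without names in the files, had interactions of -3.89 (SE 0.36) and -2.76 (SE 0.20).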

How the data were processed

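Polyadenylated RNA of whole animals was sequenced in 16 libraries. The authors deposited a gene table of estimated counts and a quantification of every transcript per library, made with Salmon 1.9.0 on WBcel235 per the submitters' processing notes. Its TPM values, per the file headers, are levels per effective length and were summed here by gene list as a percent of all TPM. They do not carry the TMM scaling of the tested counts. Before the fit, the deposited estimated counts were each made whole by rounding. Genes kept by edgeR's filter (15840 of 21982) were fitted in R 4.3.3 with edgeR 4.0.16 (TMM scaling, robust quasi-likelihood test, all 16 libraries in 1 model with a term per group), and p-values were adjusted by Benjamini-Hochberg over all genes tested. The SE is the absolute log2 change divided by the square root of F. Positions come from the Ensembl annotation of WBcel235, which placed 15820 of the genes. The fit was also run on simulated counts with few changed genes. That setting is unlike these data and cannot examine how the counts depend on scaling, so nothing here rests on it. Replicates differed by more than sampling noise, at chi-square over its degrees of freedom 5.75 to 12.1 between fasted and 12.6 to 48.1 between fed libraries.

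Genes and gene lists were chosen with earlier results of these data known. Named genes are the targeted genes, the 10 largest rises and 10 largest falls among called genes with a mean of at least 5 CPM and no overlap, up to 3 called genes per list and direction at that level, and the 6 largest interactions of each sign that match the direction of change. Members of known role that did not pass are given as values. Beyond this rule, *hsp-12.6*, *sod-3* and *lipl-4* were chosen after their values were seen, as were *act-5* and *snb-1*, named as the most abundant members of their lists. Alternatives were DESeq2 1.42.0 and its size factors in edgeR, limma voom 3.58.1, library size scaling, other filters, 8 libraries alone, a replicate block, an adjusted p threshold of 0.01 and leaving out each library. Library totals limit precision for genes with few reads, and the reads are not corrected for copies made by PCR.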

Additional observations from a re-analysis of the deposited data

Results flagged for a closer look

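The highest or lowest of 4 libraries stood apart from the others for 15 of the 260 gene and group pairs examined, and chance gives about 1 in 20. In fasted libraries the separate value was 321.8 CPM for *cbp-1*, 1399 CPM for *sodh-1*, 1.79 CPM for *grd-3*, 26.5 CPM for *col-101*, 8.82 CPM for *acox-1.5*, 18.9 CPM for *hsp-17*, 382 CPM for *unc-54*, 2.80 CPM for D1054.18 and 14.01 CPM for *hrg-7*. In fed libraries it was 21.4 CPM for *jmjd-3.1*, 0.303 CPM for C27H5.6, 66.5 CPM for *lipl-5*, 308 CPM for *pck-2*, 94.9 CPM for *nhr-49* and 3.96 CPM for *flp-27*. Fasted replicate 4 gave 4 of the 15, and fasted replicate 2 gave 0.

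The response to fasting differed from that of wild type, by the edgeR interaction at an adjusted p under 0.05, for 82 of the 130 genes examined, 42 with a positive and 40 with a negative sign. The genes examined include those chosen for the size of their interaction, and over all genes the share was 25.9%. Of these 82, 64 kept the call in all 24 other fits. The call was lost in 19 fits for *ugt-54* and 15 each for *cct-7* and *rpl-7A*, at adjusted p up to 0.285, in 13 each for *pdi-6* and *vit-5*, 12 for *perm-4*, 11 for *nlp-51* and 9 for *perm-2*, at adjusted p up to 0.164, and in 1 to 3 fits for the other 10. A positive value means a higher log2 change in labelled-deficient animals. Of yolk, collagen and cuticle genes, the positive values were 0.69 for *vit-1*, 3.43 for *col-93*, 1.98 for *col-80*, 1.499 for *col-160* and 0.77 for *col-101*. Negative values in this group were -1.81 for *vit-3*, -0.51 for *vit-5* and -1.19 for *col-19*. Of genes of fat, sugar and one-carbon metabolism, the positive values were 0.84 for *lipl-7*, 1.43 for *dgat-2*, 1.21 for *fasn-1*, 1.09 for *ahcy-1* and 0.50 for *pmt-2*. Negative values in this group were -1.90 for *sodh-1*, -4.25 for *ech-9*, -1.92 for *acdh-1*, -1.19 for *acox-1.5*, -0.46 for *hacd-1*, -2.53 for *lipl-3*, -2.097 for *elo-5*, -1.14 for *elo-6*, -1.32 for *fat-5*, -1.004 for *fat-3* and -0.90 for *lbp-7*. Of regulators, DAF-16 targets and folding genes, the positive values were 0.84 for *daf-16*, 1.02 for *aak-1*, 1.27 for *mxl-3*, 0.95 for *nhr-21*, 1.06 for *hsp-70*, 0.71 for *cct-3*, 0.53 for *cct-7* and 0.58 for *rpl-7A*. Negative values in this group were -2.46 for *mtl-1*, -1.08 for *dod-3*, -6.42 for *hsp-12.6*, -2.76 for *hsp-12.3*, -1.29 for *sod-3*, -0.77 for *dod-23*, -0.54 for *crt-1* and -0.41 for *pdi-6*. Of lysosomal, defence and detoxification genes, the positive values were 1.93 for *vha-6*, 0.69 for *vha-5*, 0.78 for *cpr-4*, 3.28 for *pho-11*, 3.22 for *pcp-4*, 3.69 for *lys-3*, 1.95 for *clec-264*, 0.77 for *ugt-54*, 1.04 for *gst-24* and 1.63 for *gst-10*. Negative values in this group were -0.96 for *cpr-1*, -2.32 for *asp-1*, -1.46 for *asp-2*, -0.84 for *lys-2*, -1.44 for *spp-4*, -1.37 for *cyp-34A9*, -1.01 for *ugt-26*, -1.12 for *ugt-44* and -3.15 for *gsto-1*. Of signalling genes and of muscle, neuron and oocyte genes, the positive values were 3.19 for *nlp-12*, 0.92 for *nlp-51*, 1.37 for *flp-27*, 2.13 for *ins-22*, 0.96 for *ins-7*, 1.36 for *sbt-1*, 1.601 for *egl-21*, 0.69 for *mup-2*, 0.68 for *perm-2*, 0.75 for *perm-4* and 1.17 for *rme-2*. Negative values in this group were -0.57 for *pat-10* and -0.70 for *myo-3*. Of the other genes, the positive values were 4.35 for *scl-11*, 2.89 for C50F7.5 and 2.50 for F46F2.3. Negative values in this group were -1.65 for *grd-3*, -3.43 for *smf-3*, -3.001 for *hrg-7*, -1.504 for C27H5.6, -1.404 for C23G10.11, -3.89 for D1054.18 and -2.76 for T20D4.10.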

How the results depend on the processing

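Of 130 genes named, 123 were called and 113 kept the direction and call of the fasting change in every fit at a threshold of 0.05 or 0.01, including those without 1 library, and 0 reversed. Interactions are given apart. Counts that moved by over 1.5 times follow. Without a filter, 1867 genes rose in labelled-deficient animals, and with a 5 CPM filter 307 rose at least 2-fold, of fewer genes tested (10752). At an adjusted p of 0.01, 1735 rose, 1215 interactions were positive and 914 negative. With library size scaling alone 989 interactions were positive and 3547 negative. That setting leaves out the TMM factors, whose mean was 0.843 in wild-type fed and 1.07 in wild-type fasted libraries. In labelled-deficient libraries the mean factor was 1.04 fed and 1.07 fasted. Why the factor was lower in wild-type fed libraries was not tested. Without 1 library at a time, 2377 to 3093 genes rose and 2180 to 2510 fell, 608 to 747 rose and 958 to 1057 fell at least 2-fold, and 1835 to 2971 interactions were positive and 1446 to 2142 negative. Sums of TPM without the most abundant member of a list were chosen after seeing the data. Genes with few reads in 1 group, such as T22F3.11, *scl-11* and *spp-4*, have imprecise sizes at this depth.

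The labels do not say that a replicate number pairs fasted with fed animals. The deviations of same-numbered labelled-deficient libraries correlated at 0.042, 0.011, 0.122 and 0.227, 2 of 4 above 0.1, and 3 of 4 correlated best with their own number. A replicate block called 7406 genes, against 5594 without it, with 5581 in both, and moved the positive interactions to 3843, against 2304 without it. Between the fed groups of both genotypes all 4 correlations were above 0.1, at 0.114 to 0.424, each best with its own number, and fasted and fed wild type had 1 of 4 above 0.1.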

Other observations

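Further gene groups of labelled-deficient animals are given here as counts, to be read beside 19.6% higher and 15.7% lower over all genes. Argonautes and RNA interference factors gave 7 of 31 higher and 0 lower. Histone deacetylases and sirtuins gave 3 of 12 higher and 0 lower. The rising shares of both groups were near that over all genes. Histone genes gave 6 of 48 higher and 4 lower, against 5 and 8 with the DESeq2 size factors. DNA replication and cell cycle genes gave 7 of 22 higher and 1 lower, against 1 and 1, and the TOR pathway 4 of 12 higher and 2 lower, against 1 and 2. F-box A genes gave 31 of 182 higher and 24 lower, against 25 and 31. MATH and BATH domain genes gave 22 of 80 higher and 5 lower. Nematode-specific peptide genes gave 1 of 30 higher and 13 lower. Superoxide dismutase, catalase and metallothionein genes gave 4 of 12 higher and 1 lower, mitochondrial stress genes 2 of 9 higher and 0 lower, and amino acid transporters 3 of 9 higher and 1 lower. Both coelomocyte markers fell, and of 5 pharynx markers 0 rose and 0 fell by edgeR, also 0 and 0 at an unadjusted p under 0.05.

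Shares of genes called were listed by chromosome, and their differences were not tested. The rising share ran from 17.9% on chromosome IV to 22.6% on chromosome II. The falling share ran from 12.9% on chromosome III to 18.7% on chromosome V. Among pseudogenes 100 of 561 rose and 54 fell, beside 19.6% higher and 15.7% lower over all genes. By level, the 3960 genes of lowest level, up to 2.06 CPM, had 14.5% higher and 4.42% lower, and the 3960 of highest level, from 61.9 CPM, had 16.7% higher and 20.0% lower.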
